A study of Homo sapiens with 12 samples.

Results

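OGP46 is a kaurene diterpenoid made from oridonin, and NB4 is an acute promyelocytic leukaemia cell line that carries the PML-RARα fusion. The response of NB4 cells to OGP46 was taken from the 6 NB4 RNA-seq samples of a series of 12, by their cell line label: 3 samples kept in DMSO and 3 samples kept in 1 μM OGP46, all for 48 h. The other 6 samples are the same design in Kasumi-1, an AML line with the AML1-ETO fusion. The study describes its experiments as independent repeats, while the labels do not say which culture each sample came from, so the p-values measure the spread between these samples, part of which may be technical. Levels are FPKM, that is fragments scaled to transcript length and to the mapped total, and 11750 of 20003 gene symbols averaged 0.1 FPKM or more over the 6 samples and were tested. Changes are OGP46 minus control on the log2(FPKM + 0.1) scale, which understates the change of low genes, and are given ± SE with n = 3 a group; levels are listed in the order of the sample numbers 1, 2 and 3. Each NB4 sample is a bulk culture, so fewer cells of a type and less RNA per cell cannot be told apart.

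NB4 cells are arrested at the promyelocyte stage, when azurophil (primary) granule proteins such as myeloperoxidase are made. The fusion protein holds back retinoid-driven myeloid genes, and agents that release the block push the cells toward granulocytes or, with other stimuli, toward monocyte-like cells with surface integrins, Fc receptors and the phagocyte oxidase. The factor NRF2, held down by KEAP1 until electrophiles or oxidants release it, turns on genes for haem breakdown, iron storage, glutathione and NADPH supply. The factor ATF4 heads another stress arm and turns on amino acid supply genes.

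The samples were read for promyelocyte markers, of which 11 of 11 were tested. Their summed level was 2779 to 4173 FPKM in control and 1774 to 3037 FPKM in OGP46 samples, and MPO, the myeloperoxidase gene, held most of it. This sum cannot tell NB4 from Kasumi-1, in whose controls MPO averaged 5024 FPKM. Markers of erythroid cells summed to 0.197 to 0.585 FPKM in the NB4 controls, with 5 of 8 at 0 in all 6 samples, and those of megakaryocytes to 1.05 to 1.22 FPKM. T and B lymphocyte markers were not near 0: they summed to 22.0 to 34.7 FPKM in control and 30.5 to 49.0 FPKM in OGP46 samples. CD3D, a chain of the T cell receptor complex, held much of this sum, with 16.1, 13.5 and 20.4 FPKM in control and 25.9, 22.5 and 34.6 FPKM in OGP46 samples. The epithelial and stromal markers summed to 7.22 to 13 FPKM and 8.39 to 17.4 FPKM. Mast cell and basophil markers summed to 1.96 to 4.85 FPKM and 1.72 to 8.18 FPKM. The part of any of these in the results below was not tested.

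More genes were higher than lower with OGP46. In limma without a block, 170 genes were called higher (1.45% of those tested) and 13 lower (0.111%), a call being an adjusted p under 0.05 and a change of at least 0.58 (1.49-fold). In 32.7% of the genes the lowest OGP46 sample exceeded the highest control, and in 1.91% the highest was under the lowest control. Control and OGP46 samples of 1 number deviated together from their group means. Over 6264 genes of at least 5 FPKM, r was 0.66, 0.85 and 0.44 for numbers 1, 2 and 3. Control 1 with OGP46 sample 3 and control 3 with OGP46 sample 1 also correlated, at 0.29 and 0.22. Over all genes tested number 3 gave 0.20, below the 0.22 of control 1 with OGP46 sample 3, so its pairing is uncertain. Deviations from each gene's mean over the 6 samples also followed GC content, over genes of at least 5 FPKM. The Spearman correlation was -0.38, 0.21 and 0.37 in controls 1 to 3 and -0.10, 0.14 and -0.33 in OGP46 samples 1 to 3. Number 3 thus had opposite signs in its 2 samples, and the source of this was not tested. With the number as a block, 595 genes were called higher (5.06%) and 135 lower (1.15%), and all 170 and all 13 genes of the fit without a block were among them. The calls without a block rested on single samples: leaving out control 1, 2 or 3 gave 0, 1 and 1 higher calls, leaving out OGP46 sample 1 or 3 gave 0 and 0, and leaving out OGP46 sample 2 gave 368. At an unadjusted p under 0.05 and the same size, those 6 limma fits held 423 to 877 higher genes. With the block, leaving out a pair gave 532 to 708 higher and 126 to 170 lower calls. Of the 595 and 135 genes called with all pairs, 463 to 498 and 93 to 111 were among them. Those smaller fits lean mostly on the variance pooled over genes, so their counts do not show that the calls are stable.

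The excess of higher calls moved with the scaling. FPKM summed to 248207 to 256268 in the controls and to 263341, 276022 and 291523 in OGP46 samples 1 to 3, and the median change over all genes tested was 0.18. Centring each sample on its median moved that median to -0.04, a shift of 0.22. With the block and centring, 188 genes were called higher (1.60%) and 203 lower (1.73%), so the share of calls that were higher went from 81.5% to 48.1%. Of those 188 and 203 genes, 188 and 120 were also called with the block alone, and of the 170 and 13 called without a block, 80 and 13 were among them. Without the block, centring left 0 calls in limma, with 159 genes higher and 252 lower at an unadjusted p under 0.05 and the same size, against 527 and 136 without centring. Group changes are therefore given beside the median of all genes, 0.18, and calls are given for the fit without a block, with the block, and with the block and centring. Over all genes these 3 fits called 1.45%, 5.06% and 1.60% higher and 0.111%, 1.15% and 1.73% lower. The list counts below are to be read against these shares, and lists with 1 or 2 calls may lie near them.

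**Figure D1:**
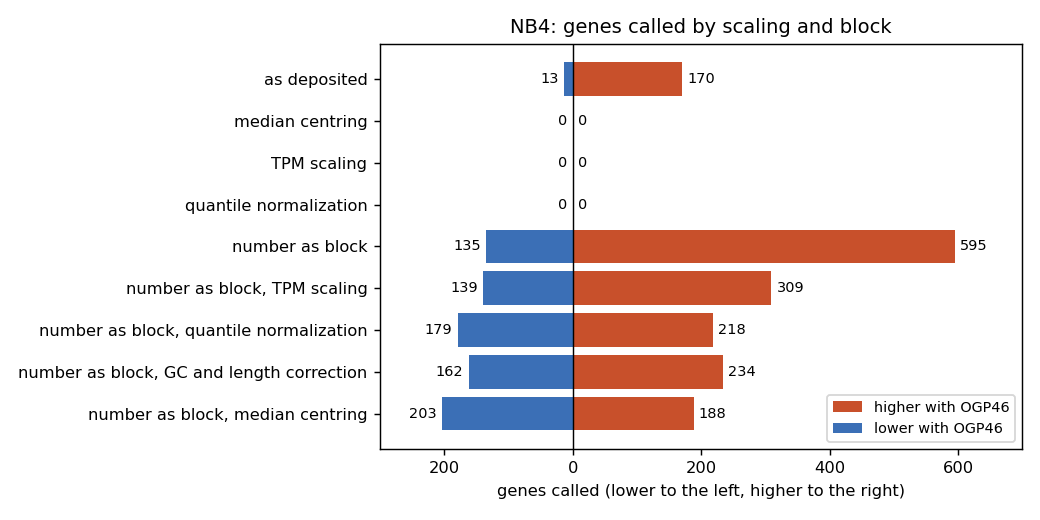
Number of NB4 genes called higher (red, to the right) and lower (blue, to the left) with OGP46 by limma under 9 combinations of scaling and block; the number at each bar is its count. Without a block the values as deposited gave 170 and 13 and the 3 other scalings gave 0, and the 5 fits with the sample number as a block gave 188 to 595 higher and 135 to 203 lower.

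Genes of at least 1 FPKM that were called higher and whose groups did not overlap were ranked by their change. HMOX1, haem oxygenase 1, which breaks haem down to biliverdin, iron and carbon monoxide, read 6.87, 3.03 and 6.22 FPKM in control and 42.9, 14.2 and 29.3 FPKM in OGP46 samples. It rose by 2.34 ± 0.42 (limma adjusted p = 0.0375, and 2.46e-07 with the block), one of the largest rises of that ranking. Number 1 was the highest and number 2 the lowest in both groups.

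ALOX5AP, the protein that presents arachidonic acid to 5-lipoxygenase, read 1.03, 0.704 and 0.845 FPKM in control and 5.90, 2.88 and 2.74 FPKM in OGP46 samples, a rise of 1.96 ± 0.28 (limma adjusted p = 0.0298). C5AR1, the receptor for the complement fragment C5a, read 1.68, 0.722 and 0.934 FPKM in control and 7.46, 3.18 and 3.30 FPKM in OGP46 samples, a rise of 1.93 ± 0.37 (adjusted p = 0.0432). The groups of both genes were apart. GPAT3, an acyltransferase of triglyceride synthesis, read 0.897, 0.572 and 0.860 FPKM in control and 3.47, 2.33 and 3.16 FPKM in OGP46 samples and rose by 1.82 ± 0.21 (adjusted p = 0.0226). FCN1, the lectin M-ficolin of monocytes, read 1.75, 1.72 and 1.15 FPKM in control and 4.42, 3.90 and 3.58 FPKM in OGP46 samples, and CD300C, an immune receptor of myeloid cells, rose with it, by 1.44 ± 0.28 against 1.33 ± 0.18. The lowest OGP46 sample of FCN1 was 2.04 times its highest control.

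Other genes ranked by that rule were PHLDA1 (1.38 ± 0.16) and PHLDA2 (1.26 ± 0.25), 2 small proteins of the pleckstrin homology-like family, EGR1 (1.31 ± 0.26), CRISPLD2 (1.30 ± 0.19), a secreted protein, and NCF1 (1.30 ± 0.23). Their limma adjusted p ranged from 0.0226 to 0.045. With the block and centring the ranking also took in ZFP36L1, which binds and destabilises AU-rich mRNAs (1.61 ± 0.38, adjusted p = 0.0635 without and 9.41e-05 with the block), CD101, a myeloid surface protein (1.49 ± 0.34, adjusted p = 0.0627 and 2.75e-05), and PLIN2, the coat protein of lipid droplets. Chosen after their values were seen, for their level, CYP1B1, a cytochrome P450, read 35.5, 31.5 and 23.9 FPKM in control and 91.8, 67 and 50.3 FPKM in OGP46 samples, and MMP14, a membrane-bound matrix metalloproteinase, read 32.4, 22.3 and 27.3 FPKM in control and 71.6, 51.5 and 57.6 FPKM in OGP46 samples. Their limma adjusted p were 0.0399 and 0.0289, and their groups did not overlap. TRIB2, a pseudokinase, chosen in the same way, read 10.4, 5.47 and 7.06 FPKM in control and 22.8, 13 and 18.6 FPKM in OGP46 samples (adjusted p = 0.0472).

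**Figure D2:**
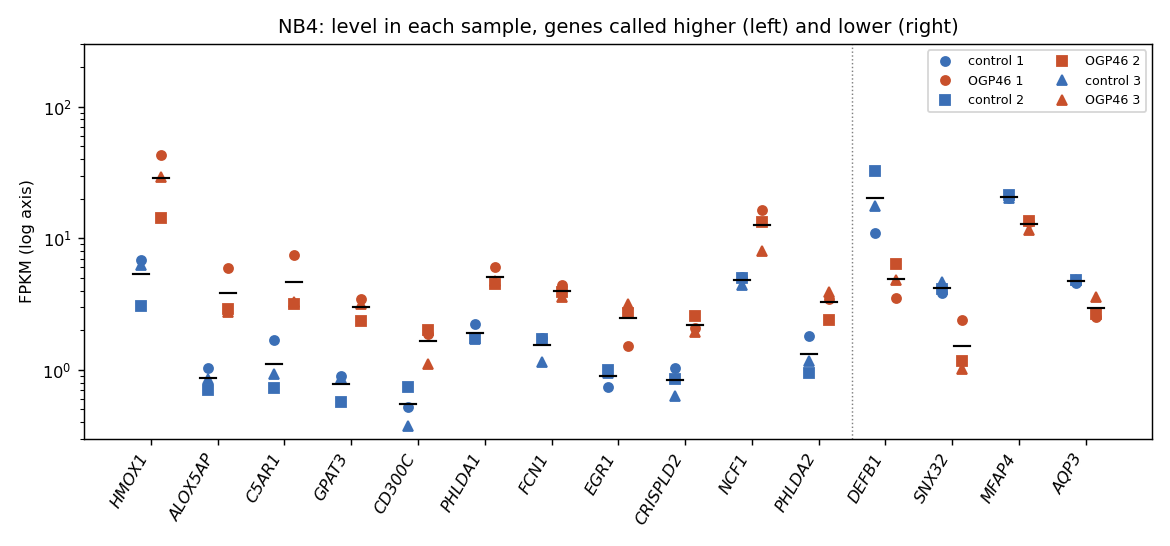
FPKM (log axis) in each NB4 control (blue) and OGP46 sample (red) for 11 of the genes ranked highest and the 4 ranked lowest, with a bar at each group mean and the marker shape giving the sample number. No gene's groups overlap. HMOX1 spans 3.03 to 6.87 FPKM in control and 14.2 to 42.9 FPKM in OGP46 samples, with number 1 highest in both.

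Part of the NRF2 programme rose. Of 26 listed, 24 were tested, 6 were called higher and 0 lower without a block, 10 and 0 with it, and 7 and 0 with the block and centring. The median change of the 24 was 0.53 against 0.18 for all genes, and in 17 of the 24 every OGP46 sample was above every control, against 32.7% of all genes. AKR1C1 and AKR1B10 were below the level for testing.

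The members fell into 3 roles. In iron and haem handling, FTH1, the ferritin heavy chain, read 542, 293 and 413 FPKM in control and 1402, 623 and 979.8 FPKM in OGP46 samples, and FTL, the light chain, read 973, 973 and 846 FPKM in control and 1504, 1389.8 and 1327 FPKM in OGP46 samples. FTH1 changed by 1.24 ± 0.30 (limma adjusted p = 0.0673 without and 3.63e-06 with the block) and FTL rose by 0.60 ± 0.09 (adjusted p = 0.0299), a call lost with the block and centring (0.38). In NADPH and quinone chemistry, NQO1, a quinone reductase, read 43.5, 31 and 36.5 FPKM in control and 86.5, 62.3 and 74.5 FPKM in OGP46 samples and rose by 1.01 ± 0.15 (adjusted p = 0.0299).

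ME1, the cytosolic malic enzyme that makes NADPH, read 10.2, 5.26 and 8.32 FPKM in control and 18.4, 9.30 and 18.1 FPKM in OGP46 samples. Its groups overlapped, and it passed only in the fits with the block, with or without centring (limma adjusted p = 0.104 without and 0.000129 with the block). In glutathione supply, GCLM, the modifier subunit of glutamate-cysteine ligase, read 5.21, 4.35 and 4.60 FPKM in control and 8.31, 6.81 and 8.02 FPKM in OGP46 samples and rose by 0.70 ± 0.12 (adjusted p = 0.0335), which was under the size for a call with the block and centring (0.48). SLC7A11, the cystine importer, read 4.70, 2.30 and 2.28 FPKM in control and 7.13, 4.55 and 4.69 FPKM in OGP46 samples. It passed only in the fits with the block, with or without centring (0.109 without and 0.000589 with the block). PIR, an iron-binding nuclear protein, rose by 1.07 ± 0.21 (adjusted p = 0.045), and OSGIN1, a small stress-induced protein, changed by 1.26 ± 0.30 (0.0656 without and 0.000481 with the block).

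Promoters of members of 3 lists were read from RefSeq (GRCh38.p14), 250 bases before to 50 after each gene's start, and searched for the element named for the list's factor. Those shown hold it before the start of a gene called with the block. Capitals mark the element, found on either strand; each line gives a window of 60 bases before the start that holds it. TGACNNNGC, the core of the antioxidant response element, lay in 5 of 18 promoters matched for the NRF2 list and in 13.6% of all 27305 promoters. It was also found in other lists, in 7 of 23 for the ATF4 and ER stress list, 4 of 7 for primary granule genes and 6 of 26 for cell cycle genes. TGATGNAA, the C/EBP-ATF element, lay in 4 of 23 for the ATF4 and ER stress list and in 3.67% of all, against 2 of 19 for the monocyte and macrophage list and 1 of 7 for primary granule genes. GCLM lies at chr1:93909431-93909490, ME1 at chr6:83431155-83431214 and ASNS at chr7:97872443-97872502, all read on the minus strand, and the element starts 34, 137 and 68 bases before the start. The match of PIR lay after its start and is not printed.
GCLM: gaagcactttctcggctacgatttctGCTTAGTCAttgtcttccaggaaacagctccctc
ME1: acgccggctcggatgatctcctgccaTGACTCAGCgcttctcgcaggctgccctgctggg
ASNS: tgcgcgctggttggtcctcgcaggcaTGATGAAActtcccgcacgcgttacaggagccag

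Some stress genes of the ATF4 arm rose, and those of the endoplasmic reticulum chaperone arm did not pass. Of 26 genes listed for both, 24 were tested and 3, 6 and 5 were called higher in the 3 fits, with 0 lower in each. Their median change was 0.38 and their range was -0.26 to 1.24. DDIT4, an inhibitor of mTORC1, read 16.7, 11.6 and 10.9 FPKM in control and 37.9, 32.6 and 22.7 FPKM in OGP46 samples and rose by 1.24 ± 0.21 (limma adjusted p = 0.0351). ASNS, asparagine synthetase, whose promoter is shown above, read 15.4, 13.1 and 11.9 FPKM in control and 25.2, 29.5 and 19.9 FPKM in OGP46 samples and rose by 0.87 ± 0.15 (adjusted p = 0.0364). TRIB3, a pseudokinase that feeds back on ATF4, rose by 0.88 ± 0.13 (adjusted p = 0.0299). SESN2, a leucine sensor, was called only in the fits with the block, with or without centring (0.0712 without and 0.000613 with the block).

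CALR, calreticulin, a chaperone of the endoplasmic reticulum, read 783, 883 and 776 FPKM in control and 624, 708 and 704 FPKM in OGP46 samples. Every OGP46 sample lay below every control, and the change of -0.26 ± 0.09 was under the size needed for a call (limma adjusted p = 0.106). Of 13 amino acid transporters, 0, 2 and 1 were called higher and 0 lower, and 12 lay above the median of all genes. SLC38A2, a carrier of small neutral amino acids, read 69.7, 44.9 and 58.4 FPKM in control and 96.7, 71.2 and 98.7 FPKM in OGP46 samples (adjusted p = 0.000561 with the block, not called with centring added). Of 12 cytosolic and mitochondrial heat shock chaperones, 0 were called in any of the 3 limma fits and 0 at an unadjusted p under 0.05 and that size, with a median of 0.07.

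Several signal-induced transcription factors and phosphatases rose. Of 24 immediate early, KLF and MAPK feedback genes 22 were tested, and 6, 10 and 8 were called higher with 0 lower. Their median was 0.54. In 15 of 22 every OGP46 sample was above every control, against 32.7% of all genes. KLF2, a zinc-finger factor of quiescent and myeloid cells, read 0.145, 0.123 and 0.142 FPKM in control and 0.684, 0.913 and 0.898 FPKM in OGP46 samples, low in every sample, and rose by 1.97 ± 0.20 (limma adjusted p = 0.0204). KLF6, its relative, read 5.78, 3.09 and 4.09 FPKM in control and 11, 7.73 and 9.52 FPKM in OGP46 samples (adjusted p = 0.0434). EGR1, induced by ERK signalling, read 0.736, 0.995 and 0.950 FPKM in control and 1.53, 2.69 and 3.15 FPKM in OGP46 samples (adjusted p = 0.0434). The lowest OGP46 sample of KLF2 was 4.72 times the highest control.

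DUSP6, the phosphatase that switches ERK off, stood at a higher level, with 41.9, 25.7 and 33.9 FPKM in control and 89, 56 and 76.4 FPKM in OGP46 samples. It rose by 1.13 ± 0.21 (limma adjusted p = 0.0385, and 6.47e-06 with the block). ZFP36, which destabilises cytokine mRNAs, read 6.41, 3.85 and 5.46 FPKM in control and 11.5, 8.52 and 11 FPKM in OGP46 samples and rose by 0.99 ± 0.19 (adjusted p = 0.0434).

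Part of the surface and signalling genes of mononuclear phagocytes rose. Of 26 monocyte and macrophage genes 21 were tested, and 6, 10 and 7 were called higher with 0, 1 and 1 lower; the median was 0.54. FPR1, MRC1, CD163, MARCO and VCAN were below the level for testing. ITGAX, the integrin CD11c, read 0.656, 0.554 and 0.786 FPKM in control and 1.71, 1.66 and 1.29 FPKM in OGP46 samples and rose by 1.11 ± 0.18 (limma adjusted p = 0.0335). CLEC7A, the β-glucan receptor dectin-1, was at or near 0 in the controls, with 0.0900, 0 and 0.0354 FPKM in control and 0.971, 0.0858 and 0.439 FPKM in OGP46 samples, and its groups overlapped (0.103 without and 0.00344 with the block). ANPEP, the aminopeptidase CD13, a promyelocyte marker here, also rose, with 69.5, 58.5 and 72.7 FPKM in control and 114, 94.1 and 114 FPKM in OGP46 samples (adjusted p = 0.0335, not called with the block and centring, at 0.46).

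Of 18 Fc receptors and ITAM adaptors 12 were tested, and 3, 5 and 2 were called higher with 0 lower. FCER1G, the γ chain shared by Fc receptors, read 22.5, 10.8 and 16.6 FPKM in control and 46.6, 23.3 and 37.2 FPKM in OGP46 samples, a change of 1.10 ± 0.30 (limma adjusted p = 0.0775 without and 1.1e-05 with the block). TYROBP, the adaptor DAP12, read 17.2, 18.2 and 16.3 FPKM in control and 30.0, 25.1 and 29.8 FPKM in OGP46 samples and rose by 0.71 ± 0.10 (adjusted p = 0.0278). TREM1, which signals through that adaptor, read 0.262, 0.109 and 0.196 FPKM in control and 0.652, 0.510 and 0.662 FPKM in OGP46 samples, all under 1 FPKM, and rose by 1.32 ± 0.25 (adjusted p = 0.0429). SIRPA, the receptor for CD47, rose by 0.67 ± 0.12 (adjusted p = 0.0383). With the block and centring TYROBP (0.49) and SIRPA (0.45) were not called.

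The phagocyte NADPH oxidase was measured in 7 subunits, of which 1, 4 and 1 were called higher and 0 lower; all 7 lay above the median of all genes. NCF1, the organiser subunit p47phox, read 5.11, 4.99 and 4.42 FPKM in control and 16.5, 13.2 and 8.06 FPKM in OGP46 samples and rose by 1.30 ± 0.23 (limma adjusted p = 0.0364). NCF1 has near-identical pseudogene copies, so its level is uncertain. CYBB, the catalytic gp91phox, read 46.7, 35 and 38.5 FPKM in control and 68.3, 47.9 and 71.7 FPKM in OGP46 samples (adjusted p = 0.0726 and 0.00118 with the block). NCF4, the cytosolic subunit p40phox, was called with the block (0.00125) and not without it or with centring added, at 11 ± 1.24 and 16.5 ± 2.16 FPKM (control and OGP46 means, SD, n = 3).

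Of 14 chemoattractant receptors 11 were tested, and 2, 5 and 2 were called higher with 0, 1 and 1 lower. Besides C5AR1, CCR1, a receptor for CC chemokines, read 3.73, 3.73 and 2.57 FPKM in control and 7.91, 6.15 and 5.76 FPKM in OGP46 samples and rose by 0.97 ± 0.18 (limma adjusted p = 0.0383). C3AR1, the C3a receptor, read 5.40, 1.41 and 3.96 FPKM in control and 6.81, 2.39 and 8.50 FPKM in OGP46 samples, with number 2 low in both groups (adjusted p = 0.404 without and 0.00402 with the block, and 0.49 on the log2 scale, under the size for a call, with centring added). Of 15 integrins and adhesion molecules tested, 3, 7 and 5 were called higher and 0 lower. Lists share members, so their counts are not independent. ITGAX is also a monocyte gene, C5AR1 is in the monocyte and chemoattractant lists, and SLC7A11 is in the NRF2 and amino acid transporter lists. S100 proteins and galectins gave 0, 4 and 3 higher of 12. S100A9, a subunit of calprotectin, read 4.41, 10.7 and 5.60 FPKM in control and 9.92, 20.5 and 14.3 FPKM in OGP46 samples, and its partner S100A8 read 0.998, 1.39 and 0.773 FPKM in control and 1.73, 2.26 and 1.75 FPKM in OGP46 samples. Both passed only in the fits with the block, with or without centring (limma adjusted p = 3.83e-05 and 0.00215 without centring). LGALS3, galectin-3, read 15, 6.35 and 13.3 FPKM in control and 30.1, 13.2 and 32.3 FPKM in OGP46 samples (0.12 without and 2.18e-05 with the block).

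In the cytokine and NF-κB feedback list most calls came with the block. Of 28 listed 24 were tested, with a median of 0.63, and 2 were called higher without a block, 13 with it and 8 with the block and centring, with 0 lower in each. ICAM1, an adhesion molecule induced by NF-κB, read 18.1, 2.44 and 19.2 FPKM in control and 38.3, 8.35 and 35.1 FPKM in OGP46 samples. Number 2 was low in both groups, the groups overlapped, and OGP46 was higher in 3 of 3 pairs (limma adjusted p = 0.343 without and 0.000191 with the block). NFKB2, the p100 subunit, read 2.65, 0.636 and 2.82 FPKM in control and 4.96, 1.48 and 6.19 FPKM in OGP46 samples and showed the same order (0.297 and 0.000171). IER3, an early response gene of that path, read 2.26, 0.338 and 1.79 FPKM in control and 3.93, 1.65 and 4.45 FPKM in OGP46 samples (0.187 and 0.000743).

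TNF stood at the highest level of the cytokines named here, with 44.7, 19.1 and 39 FPKM in control and 59.5, 31.9 and 69.9 FPKM in OGP46 samples, and changed by 0.66 ± 0.36 (limma adjusted p = 0.251 without and 0.00088 with the block, and 0.44 on the log2 scale, under the size for a call, with centring added). What set number 2 apart was not tested, and it was seen in the control as well as in the treated sample.

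**Figure D3:**
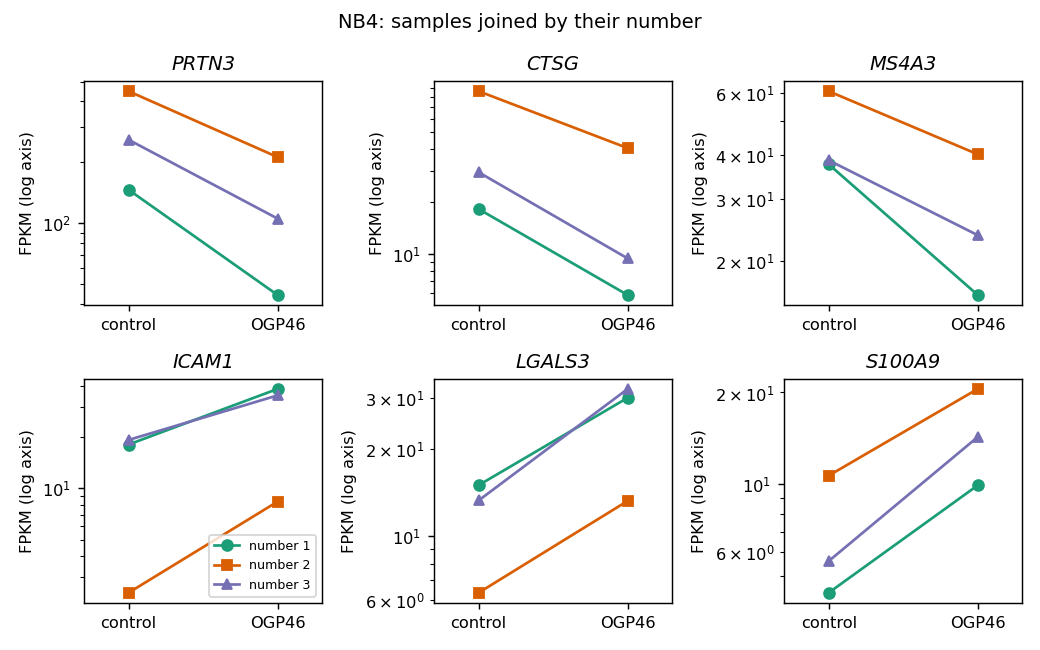
FPKM (log axis, scaled per panel) of 6 genes in NB4 controls and OGP46 samples, with a line joining the samples of each number. The granule protease genes PRTN3 and CTSG and MS4A3 are lower with OGP46 in every pair, while ICAM1, LGALS3 and S100A9 are higher in every pair, although the numbers differ more than the groups do for ICAM1.

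Primary granule genes went the other way. Of 11 listed, 10 were tested, and all 10 had a change below the median of all genes, with a median of -0.73 against 0.18. Without a block 0 were called in limma, 3 being lower at an unadjusted p under 0.05 and of that size, with it 6 were called lower, and with the block and centring 9 were, with 0 higher in each. PRTN3, proteinase 3, read 146, 449 and 259 FPKM in control and 44.3, 212 and 106 FPKM in OGP46 samples. CTSG, cathepsin G, read 18.2, 86.3 and 29.5 FPKM in control and 5.82, 40.7 and 9.45 FPKM in OGP46 samples. For both genes number 2 was the highest and number 1 the lowest in each group, so the groups overlapped while every pair was lower with OGP46.

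PRTN3 changed by -1.36 ± 0.56 (limma adjusted p = 0.155 without and 1.39e-05 with the block) and CTSG by -1.45 ± 0.75 (0.228 and 1.21e-05). AZU1, azurocidin, read 45.5, 83.2 and 57.6 FPKM in control and 26.3, 55.2 and 40.8 FPKM in OGP46 samples (0.000639 with the block). MS4A3, a surface protein of promyelocytes, read 37.6, 60.7 and 38.6 FPKM in control and 16, 40.2 and 23.7 FPKM in OGP46 samples (0.000612 with the block). MPO, the most abundant of them, read 2394, 3323 and 2972 FPKM in control and 1509.6, 2503 and 2271 FPKM in OGP46 samples, a change of -0.49 ± 0.20 that was called only with the block and centring (-0.71, adjusted p = 0.00191). DEFA4, a defensin, was low, with 0.215, 1.25 and 0.837 FPKM in control and 0.105, 0.319 and 0 FPKM in OGP46 samples. BPI was below the level for testing.

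Of 15 secondary and tertiary granule genes only 6 were tested, and 7 were at 0 in all 6 samples. In the 3 fits 0, 1 and 1 were called higher and 0, 1 and 1 lower. MMP9, the gelatinase of the tertiary granule, read 107, 47 and 100.2 FPKM in control and 341, 121 and 299 FPKM in OGP46 samples and was called higher with the block (limma adjusted p = 1.08e-06) and not without it (0.0796). CHI3L1, a chitinase-like protein of the secondary granule, read 4.54, 18 and 4.80 FPKM in control and 3.15, 12.2 and 2.32 FPKM in OGP46 samples and passed in the lower direction with the block (limma adjusted p = 0.00201). LTF, LCN2, MMP8, CEACAM8 and CRISP3, defining genes of the late granule, were below the level for testing.

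ELANE, neutrophil elastase, is a gene of high level in the other cell line. It read 0.504, 3.30 and 14.5 FPKM in control and 0.321, 0.430 and 1.39 FPKM in OGP46 samples, and its Kasumi-1 control mean was 1505 FPKM. The signal of 8 genes of at least 50 FPKM in every Kasumi-1 sample and a median under 2 FPKM in NB4, ELANE and CD34 among them, gave an estimated share of Kasumi-1 signal of 0.0523%, 0.231% and 1.00% in NB4 controls 1 to 3 and 0.0347%, 0.0534% and 0.0927% in the OGP46 samples. From the 6 of these genes other than ELANE and CD34, chosen after seeing the data, the shares were 0.0942%, 0.268% and 1.04% in controls and 0.0640%, 0.116% and 0.0954% in OGP46 samples, again with control 3 the highest. Of 10 Kasumi-1 markers 7 were tested, 0, 0 and 0 were called higher and 1, 2 and 1 lower, and their sum was 266 to 342 FPKM in control and 221 to 294 FPKM in OGP46 samples. The 2 called lower with the block, CD34 and IGLL1, held at most 1.31 and 0.335 FPKM of it. Other members held nearly all of the sum, so it does not measure the Kasumi-1 share. CD34, a progenitor marker, read 0.0601, 0.154 and 1.31 FPKM in control and 0.0437, 0.0149 and 0.0804 FPKM in OGP46 samples. Each sample's share was then subtracted and the fit without a block repeated, an alternative chosen after seeing the data. The changes were then -1.32 for PRTN3, -1.44 for CTSG, -0.84 for MS4A3, -1.84 for DEFA4, -0.54 for AZU1 and -0.48 for MPO. Those of AZU1 and MPO were under the size for a call, and ELANE and CD34 were no longer tested. In that fit 177 genes were called higher and 14 lower. The median of the primary granule list minus that of all genes went from -0.91 to -0.72, the latter without ELANE. The calls with the block were not tested after this subtraction.

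Promoters of 7 primary granule genes were matched, and 5 of them held TTGCNNAA or its reverse complement TTNNGCAA, a C/EBP core, against 10.6% of all promoters and 4 of 23 for the ATF4 and ER stress list. Among the 5, RNASE3 and RNASE2 held it in windows of near-identical sequence, so they are not separate finds. CTSG and PRSS57 held no match, and MPO, ELANE and BPI had no promoter entry. Of the 5, the 3 whose genes were called lower with the block are shown, with the element in capitals. PRTN3 is chr19:840911-840970, AZU1 is chr19:827700-827759 and MS4A3 is chr11:60056571-60056630, on the plus strand, and the element starts 62, 111 and 68 bases before the start. MS4A3 held a second match farther upstream.
PRTN3: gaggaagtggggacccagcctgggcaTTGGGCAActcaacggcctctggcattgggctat
AZU1: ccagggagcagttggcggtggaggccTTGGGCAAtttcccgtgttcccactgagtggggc
MS4A3: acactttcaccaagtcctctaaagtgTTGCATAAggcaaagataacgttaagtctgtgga

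In lipid and lysosome genes the changes were smaller. Of 20 eicosanoid genes 14 were tested, and 1, 2 and 2 were called higher with 0 lower: ALOX5AP above, and ALOX5, 5-lipoxygenase itself, which read 0.209, 0.182 and 0.106 FPKM in control and 0.581, 0.725 and 0.281 FPKM in OGP46 samples (limma adjusted p = 0.0761 without and 0.00461 with the block). Their median, 0.11, was below that of all genes. Of 11 lipid efflux and storage genes tested 0, 2 and 1 were called higher with 0 lower. PLIN2, the lipid droplet coat, read 19.5, 8.85 and 10.7 FPKM in control and 56.4, 24.8 and 25.5 FPKM in OGP46 samples, with number 1 highest in both groups (0.0712 and 3.63e-06). Of 33 lysosome genes 31 lay above the median of all genes, with a median of 0.35, while 3, 4 and 0 were called higher. The 3 were NPC1, the cholesterol exporter (0.60 ± 0.10), MCOLN1, a calcium channel (0.62 ± 0.13), and NEU1, a sialidase (0.59 ± 0.12).

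Of 23 cholesterol and fatty acid synthesis genes, 0 were called in limma without a block and 0 with it, likewise 0 and 0 at an unadjusted p under 0.05 and of the size needed for a call, and 2 were called lower with the block and centring. SCD, the stearoyl-CoA desaturase, read 35.9, 93.9 and 52.9 FPKM in control and 21, 69.3 and 44.7 FPKM in OGP46 samples, and SREBF1, the factor SREBP-1, read 5.81, 8.66 and 9.75 FPKM in control and 4.04, 5.78 and 7.09 FPKM in OGP46 samples. The values of SCD spread over the numbers more than between the groups.

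Of 24 actin and cytoskeleton genes, 3, 6 and 1 were called higher and 0 lower, against 1.45%, 5.06% and 1.60% of all genes called higher. RHOU, an atypical small GTPase, read 18.7, 16 and 15.9 FPKM in control and 28.7, 28.8 and 31 FPKM in OGP46 samples and rose by 0.81 ± 0.09 (limma adjusted p = 0.0226). CAPG, a capping protein of macrophages, read 36.5, 39.6 and 35 FPKM in control and 59, 63.4 and 55.6 FPKM in OGP46 samples and rose by 0.68 ± 0.08 (0.0226). In the clotting system 8 of 13 genes were tested and 1, 2 and 1 were called higher. PLAUR, the urokinase receptor, read 1.70, 1.44 and 1.55 FPKM in control and 2.20, 2.83 and 2.71 FPKM in OGP46 samples (adjusted p = 0.0462). The calls of CAPG and PLAUR were lost with the block and centring, at 0.46 and 0.46.

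Housekeeping and proliferation genes had small changes, mostly below the median of all genes. Of 31 cell cycle and replication genes, 75 cytosolic ribosomal proteins, 75 oxidative phosphorylation genes and 78 mitochondrial ribosomal proteins, 0 were called in any of the 3 limma fits, and at an unadjusted p under 0.05 and that size 1 oxidative phosphorylation gene was lower with the block and 0 others were in any fit. Their medians were 0.11, 0.05, 0.10 and 0.07, with 12, 9, 16 and 11 of their members above the median of all genes. MKI67, which encodes the proliferation antigen Ki-67, read 29.9, 26.6 and 24.6 FPKM in control and 35.6, 34.9 and 32.6 FPKM in OGP46 samples, and TK1, thymidine kinase, read 21.5, 24.6 and 22 FPKM in control and 32.7, 33.4 and 29.8 FPKM in OGP46 samples. Their groups did not overlap, and their changes, 0.35 ± 0.09 and 0.49 ± 0.09, were under the size needed for a call. Of 25 glycolysis and hypoxia genes 0, 1 and 0 were called higher, the 1 being SLC2A3, the glucose transporter GLUT3 (0.000448 with the block). This share is near the 5.06% of all genes called higher with the block.

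Growth arrest and death genes were called mostly with the block, as was the case over all genes tested. Of 21 G1, CDK inhibitor and p53 target genes 1, 5 and 2 were called higher and 0 lower. BTG2, an antiproliferative gene, read 1.79, 0.433 and 1.31 FPKM in control and 8.40, 0.777 and 4.94 FPKM in OGP46 samples, with number 2 low in both groups (limma adjusted p = 0.222 without and 0.000646 with the block). Of 13 BCL2 family genes 0, 4 and 2 were called higher and 0 lower. The BH3-only genes BBC3 (PUMA), BMF and PMAIP1 (NOXA) changed by 0.85 ± 0.31, 0.81 ± 0.32 and 0.79 ± 0.19, with adjusted p of 0.000572, 0.00125 and 0.00106 with the block and none under 0.05 without it. PMAIP1 was not called with centring added (0.56).

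PML and RARA, the partners of the fusion, did not pass. PML read 5.70, 6.65 and 5.81 FPKM in control and 6.13, 7.83 and 7.08 FPKM in OGP46 samples and RARA read 4.32, 5.32 and 4.37 FPKM in control and 4.70, 6.54 and 5.59 FPKM in OGP46 samples. Their limma adjusted p were 0.267 and 0.267, and 0.128 and 0.0843 with the block; the sign of PML's change, 0.21 ± 0.12, turned with centring (-0.01). Of 13 retinoid and PML genes tested, 0, 1 and 0 were called higher. Of 19 interferon-stimulated genes 0, 2 and 0 were called higher: IRF9 (0.79 ± 0.28) and IRF7 (0.60 ± 0.21). Of 13 MHC and peptide loading genes 0 were called in limma and 0 passed an unadjusted p under 0.05 with that size, and of 7 metallothioneins and zinc exporters 0, 0 and 0 were called higher and 0, 1 and 1 lower, the 1 being MT1G, with 24.1, 15.5 and 23.6 FPKM in control and 14, 11.6 and 13.8 FPKM in OGP46 samples. Progenitor and lineage factors gave 1, 2 and 2 higher and 0, 1 and 0 lower of 21.

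**Figure D4:**
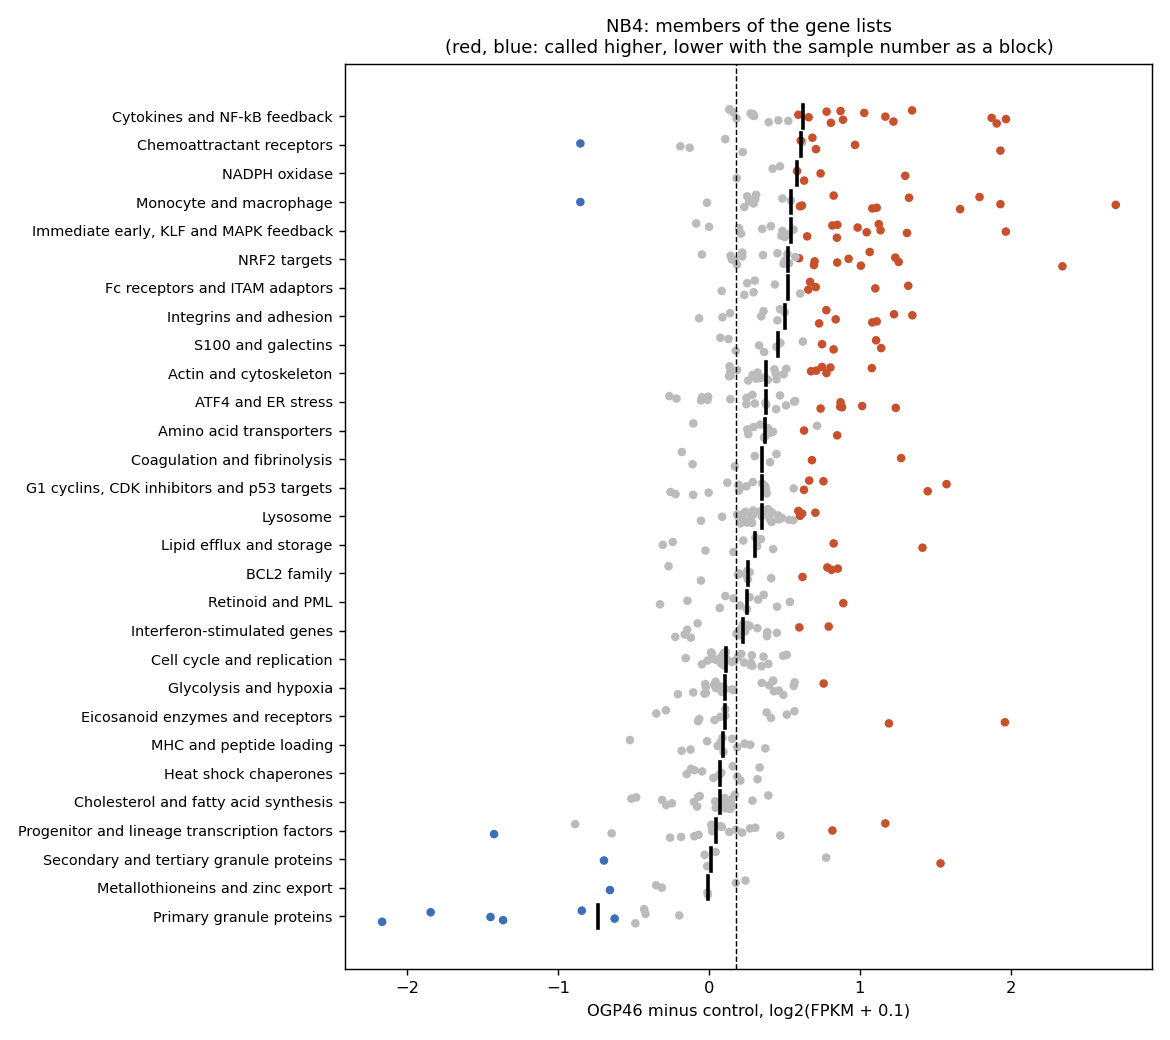
Change of each tested member (point) of 29 gene lists in NB4, as OGP46 minus control on the log2(FPKM + 0.1) scale; black bars are list medians, the dashed line is the median of all genes, and red and blue mark genes called higher and lower with the sample number as a block. Primary granule proteins lie at the bottom with a median of -0.73, and the cytokine and NF-κB feedback list at the top with 0.63.

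The 13 genes called lower without a block had control means of 0.290 to 20.7 FPKM. DEFB1, a β-defensin of epithelia, read 11, 32.6 and 17.4 FPKM in control and 3.50, 6.43 and 4.85 FPKM in OGP46 samples and changed by -1.93 ± 0.37 (limma adjusted p = 0.0428). AQP3, a water and glycerol channel, read 4.54, 4.83 and 4.80 FPKM in control and 2.53, 2.65 and 3.60 FPKM in OGP46 samples (0.0481), and MFAP4, a matrix glycoprotein, read 20.3, 21.5 and 20.3 FPKM in control and 13.2, 13.4 and 11.6 FPKM in OGP46 samples (0.0226). Under 1 FPKM, and outside the ranking, ENTPD1, the ectonucleotidase CD39, read 0.830, 0.885 and 0.743 FPKM in control and 0.402, 0.407 and 0.384 FPKM in OGP46 samples (0.0385). AQP5, another water channel, and IGLL1, a surrogate light chain of B cell precursors, changed by -1.51 ± 0.25 and -1.41 ± 0.25, and NEXN, an actin-binding protein, by -0.90 ± 0.19. KCNH2, a potassium channel, read 3.30, 2.80 and 5.87 FPKM in control and 1.07, 0.942 and 2.79 FPKM in OGP46 samples (0.089 without and 6.21e-05 with the block).

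Another pair was chosen after its values were seen. ZBTB16, the zinc-finger factor PLZF, read 1.30, 1.74 and 1.65 FPKM in control and 0.410, 0.707 and 0.964 FPKM in OGP46 samples, and TERT, the catalytic subunit of telomerase, read 3.51, 4.16 and 5.32 FPKM in control and 1.84, 2.86 and 3.13 FPKM in OGP46 samples. In both genes the groups were apart, and the change was called only in the fits with the block, with or without centring (limma adjusted p = 0.00112 and 0.00137 without centring).

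Many of the other lower genes lie across from a highly expressed gene. SNX32 (chromosome 11, 65833641 to 65856896, plus strand), a sorting nexin, read 3.86, 4.11 and 4.65 FPKM in control and 2.39, 1.16 and 1.01 FPKM in OGP46 samples and was called lower without a block (0.0385). Its exons overlap by 357 bases those of CFL1 (cofilin) on the other strand, whose means were 781 (control) and 872 FPKM (OGP46). ATP6V1C2, a proton pump subunit, read 4.52, 4.91 and 5.69 FPKM in control and 3.12, 1.39 and 0.705 FPKM in OGP46 samples across from PDIA6, at 127 and 114 FPKM. SNX22 read 4.77, 5.32 and 4.84 FPKM in control and 3.11, 1.80 and 0.968 FPKM in OGP46 samples across from PPIB, at 325 and 310 FPKM. In all 3 genes OGP46 sample 1 was the highest treated sample and sample 3 the lowest.

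SPATA21 (across from SZRD1), RHCE (TMEM50A), CFAP73 (DDX54) and SYNC (RBBP4) had changes of -1.33 ± 0.31, -1.27 ± 0.41, -1.25 ± 0.36 and -1.21 ± 0.33, and their partners changed by 0.13, 0.29, -0.05 and 0.23. Of all tested genes found in GENCODE 29, 388 (3.36%) had exons overlapping by at least 20 bases those of a gene on the other strand at 10 times their own mean or more. Among genes called lower with the block the share was 29.1% (37 of 127), and among those called lower with the block and centring it was 17.4% (33 of 190). Among genes called higher with the block it was 1.88%. The median level of the 388 as a percentage of the gene across was 3.49, 3.41 and 3.94 in controls 1 to 3 and 3.22, 2.86 and 2.66 in OGP46 samples 1 to 3. The library kit keeps strand, whether the quantification used it is not given in the sources used here, and the part of this in the result was not tested. CERKL (-1.36 ± 0.33) and ARHGEF4 (-1.35 ± 0.38), 2 more of the ranked genes, had the same order of samples without such a partner.

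**Figure D5:**
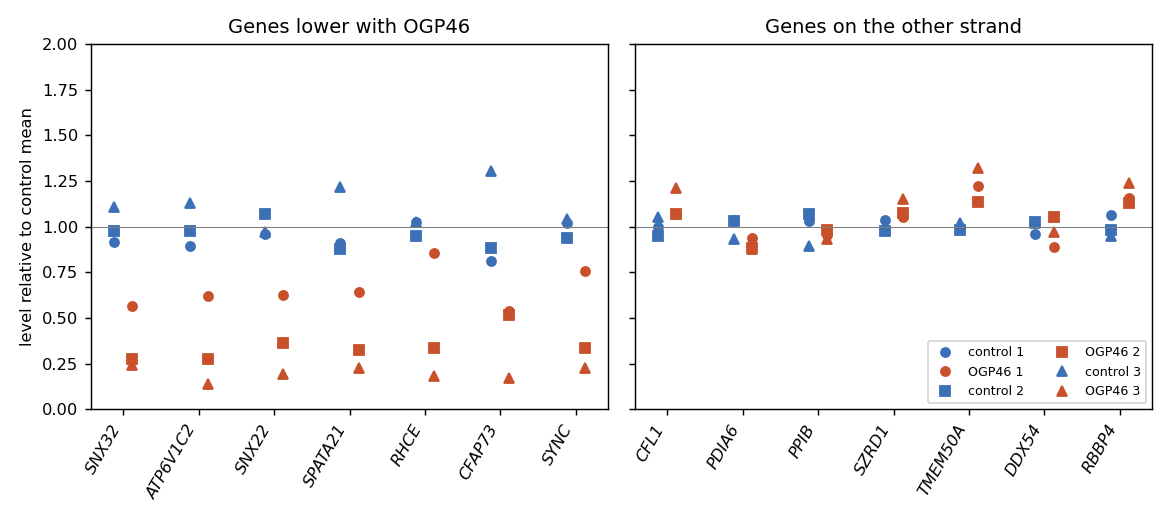
Level relative to the NB4 control mean in each sample for 7 genes lower with OGP46 (left) and for the gene on the other strand from each (right); blue is control, red is OGP46 and the shape is the sample number. On the left the OGP46 samples lie below the controls with number 3 lowest, and on the right both groups lie near 1.

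In Kasumi-1 the same comparison served to show where NB4 differed. The interaction of line and treatment, NB4 minus Kasumi-1, gave 0 genes of 12309 in limma without a block (0.00%), with 455 at an unadjusted p under 0.05 and the same size, and 185 (1.50%) with the block. Leaving out pair 1, 2 or 3 took the 185 to 1, 1 and 24. With the block, the interaction adjusted p was 0.00387 for GPAT3, 0.0034 for DUSP6, 0.00609 for FCER1G and 0.00412 for PLIN2. FCN1 was at 0.0176 ± 0.0304 FPKM in controls and 0.00198 ± 0.00342 FPKM with OGP46 (SD, n = 3) in Kasumi-1, near 0 in both groups. DUSP6 was at 36.7 ± 3.60 FPKM in controls and 42.7 ± 3.24 FPKM with OGP46 (SD, n = 3). CTSG, at 112 ± 32.3 FPKM in controls and 91.5 ± 19.1 FPKM with OGP46 (SD, n = 3), had an interaction adjusted p of 0.00923 with the block. It was lower in 3 of 3 Kasumi-1 pairs, as were MPO, PRTN3, ELANE, AZU1 and MS4A3. For PRTN3 that interaction adjusted p was 0.0241, and for MPO, ELANE, AZU1 and MS4A3 it was 0.193, 0.151, 0.313 and 0.535. MS4A3 changed by -1.04 in Kasumi-1 against -0.84 in NB4, so lower granule genes were not particular to NB4.

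Of the NRF2 genes, NQO1 was at 7.70 ± 1.68 FPKM in controls and 13.9 ± 3.11 FPKM with OGP46 (SD, n = 3) in Kasumi-1 and FTL at 2019 ± 231 FPKM in controls and 3116 ± 375 FPKM with OGP46 (SD, n = 3). Their changes there were 0.85 and 0.63 against 1.01 ± 0.15 and 0.60 ± 0.09 in NB4, and the interaction adjusted p with the block were 0.523 and 0.906. A p above the threshold does not show that the lines respond alike. ASNS, at 12 ± 2.02 FPKM in controls and 12.7 ± 1.33 FPKM with OGP46 (SD, n = 3), and DDIT4, at 7.03 ± 2.68 FPKM in controls and 8.85 ± 2.67 FPKM with OGP46 (SD, n = 3), had interaction adjusted p of 0.0219 and 0.0283 with the block.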

How the data were processed

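RNA was extracted with Trizol, and libraries were made with the TruSeq Stranded mRNA LT kit, per the labels. The submitters' processing notes name Trimmomatic, HISAT2, Cufflinks, HTSeq and build hg38, with no version or setting. The authors deposited FPKM per gene symbol, 1 file a sample, with no counts, so depth is unknown and the number of samples limits the precision. The labels give 48 h of treatment, while the study's text also gives 72 h.

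From these values, 27 symbols turned into dates were dropped. Genes averaging 0.1 FPKM or more were tested as log2(FPKM + 0.1) in limma 3.58.1 (R 4.3.3) with a variance trend and Benjamini-Hochberg adjustment over 11750 genes, without a block, and as alternatives with the sample number as a block, with median centring, TPM or quantile scaling, other pseudocounts and filters, and samples left out. Every same-numbered pair correlated (0.35, 0.62 and 0.20 over all genes tested), as did control 1 with OGP46 sample 3 (0.22) and control 3 with OGP46 sample 1 (0.18), so blocked values are printed where they change a call. With 3 samples against 3 an exact permutation test of a single value cannot go below p = 0.10, so none is given. The fits were tested on simulated data: over 11750 genes without a block, 61.0% of 100 genes changed by 1 on the log2 scale and 92.0% of 100 changed by 2 were called. With the block these shares were 65% and 90%. In the NB4 data the block took the higher calls from 170 to 595, so the simulated shares may not hold for them. GC content and length came from GENCODE 29, for 98.3% of tested genes. The 10 motifs searched in RefSeq promoters, on both strands, were TGACNNNGC, a longer form of it, TTGCNNAA, TGATGNAA, GAGGAAGT for PU.1, CCAATCA for the CCAAT box, TTTGAA for the cell cycle homology region, TGACGTCA for CREB, GCGTGGGCG for EGR and TGANTCA for AP-1, chosen after gene values were seen.

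Ranked genes were those called, averaging 1 FPKM or more with groups apart, the 12 with the largest change in each direction, leaving out read-through symbols and genes the study names. Results for some genes are not reported here. From each list the 2 tested members highest in FPKM and the 2 with the largest change could also be named. Other genes, such as NQO1, GCLM, ME1, PIR, ASNS, TRIB3, KLF6, ZFP36, AZU1, MS4A3, NPC1 and NEU1, were named after their values were seen. Members and lists were chosen with earlier results of these data known.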

Additional observations from a re-analysis of the deposited data

Results flagged for a closer look

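Among the 108 named genes, those that moved in opposite directions in every same-numbered pair of the 2 lines were picked out, and there were 4. Many of the 108 were named for their change in NB4. The share over all genes is not given, so whether 4 is more than chance would give cannot be told. PTAFR, the receptor for platelet-activating factor, was higher with OGP46 in 3 of 3 NB4 pairs and lower in 3 of 3 Kasumi-1 pairs, a difference of 1.06 on the log2 scale (limma interaction adjusted p = 0.353 without and 0.0374 with the block), at 0.182 FPKM in Kasumi-1 controls. TNF differed by 0.96 (0.567 and 0.0209), at 0.368 FPKM in Kasumi-1 controls. CD3D differed by 1.50 (0.384 and 0.110), at 0.529 FPKM there. PML differed by 0.35 (0.400 and 0.122), at 6.58 FPKM there.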

How the results depend on the processing

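The counts moved with scaling, block and single samples; the cause was not tested. Against 170 higher and 13 lower, median centring, TPM scaling and quantile normalization gave 0 and 0, no filter 4 and 0, no variance trend 3 and 1, a pseudocount of 1 gave 111 and 6, a minimum mean of 1 FPKM gave 7 lower, and no minimum change 289 higher. The replicate block gave 595 and 135, with TPM scaling 309 and 139, and with median centring 188 and 203. With GC and length correction it gave 234 and 162 and with quantile normalization 218 and 179, these 2 chosen after seeing the data. Leaving out 1 sample gave 0 to 368 higher and 0 to 28 lower calls. With the replicate block, leaving out pair 1, 2 or 3 gave 708, 624 and 532 higher and 170, 133 and 126 lower. The interaction of NB4 against Kasumi-1, 0 genes, became 12 with a pseudocount of 1, 185 with the replicate block, 81 with centring and 75 with TPM scaling added to it, 0 to 1 with a sample left out, and 1, 1 and 24 with the block and pair 1, 2 or 3 left out.

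PML's change turned to -0.014 with median centring and to -0.0043 with quantile normalization, each with and without the replicate block. List medians minus that of all genes turned for chemoattractant receptors (-0.020 with a pseudocount of 1), coagulation and fibrinolysis (-0.022 with no filter, and -0.088 to 0.28 with a sample left out), retinoid and PML (-0.0058 to 0.17 with a sample left out), cell cycle (0.00025 with the block and without pair 3), glycolysis (0.024 with quantile normalization, with and without the replicate block), cholesterol and fatty acid synthesis (-0.35 to 0.073 with a sample left out) and interferon-stimulated genes (-0.0061 with a pseudocount of 1, and -0.13 to 0.20 with a sample left out). The other 723 values of lists under an alternative did not turn, and 601 of them moved by less than the spread between pairs. Depth is unknown, so no limit from counting can be given.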

Other observations

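Calls were counted by mean level. Without a block, 18 of 2237 genes between 0.1 and 1 FPKM, 96 of 5391 between 1 and 10 FPKM, 51 of 3717 between 10 and 100 FPKM and 5 of 405 at 100 FPKM and over were called higher, and 8, 3 and 2 lower in the first 3 of these bands. With the block, 188 of 2237 genes between 0.1 and 1 FPKM were called higher, 303 of 5391 between 1 and 10 FPKM, 97 of 3717 between 10 and 100 FPKM, and 7 of 405 at 100 FPKM and over. In the same bands 79, 44, 10 and 2 genes were called lower.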
